A study of Mus musculus with 35 samples.

Results

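Sebum is made by the sebaceous gland, a lipid-filled gland that opens into the hair canal. The 10 mouse genes of that lipid pathway described here are Scd1, Scd3, Elovl3, Mc5r, Awat1, Awat2, Dgat2l6, Far2, Soat1 and Fa2h. The genes were chosen by their names, with earlier results of these data known, and all 10 were found among the 36106 genes of the count table. RNA had been sequenced in bulk from 35 skin samples. They came from 19 mice, by the pairing of samples assumed below, of the inbred strain C57BL/6J, all female and aged 10 weeks. Radiated skin (16 samples) had received 25 Gy on the left flank at 3.6 Gy per min during 420 seconds and was shaved after the dose. Control skin (16 samples) carries the same weeks and sample numbers as the radiated skin, with 4 samples of each kind at weeks 1, 2, 3 and 4. Sham skin (3 samples) came from mice that had no radiation, and its labels name no week. A radiated and a control sample of one week and number were taken to be from the same mouse, so control skin is here the skin of mice that had been radiated at the flank. The labels do not say where control skin was taken or whether sham and control skin was shaved.

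Sebocytes fill up with lipid, burst and release their content as sebum, and are replaced from progenitors at the edge of the gland. Fatty acids are first elongated and desaturated. Fatty acyl-CoA reductases turn part of them into fatty alcohols, which wax alcohol acyltransferases join to further fatty acids as wax esters, while sterol acyltransferases make cholesterol esters. Melanocortin signalling is known to raise sebum output in mice. Sebaceous glands are counted among the parts of the skin that ionizing radiation can damage.

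Library totals ran from 17362853 to 28487885 counts. Marker genes of the interfollicular epidermis summed to between 5355 and 33585 CPM over the 35 samples, so epidermal RNA was present throughout. CPM is the number of counts of a gene per 1000000 counts of a library, on libraries scaled with TMM factors. Of the 10 genes, all passed the filter on low counts in each comparison, and 1 value of 0 counts occurred, for Elovl3 in radiated week 2 replicate 4, where 3 counts would be 0.157 CPM. The 17 hair follicle markers differed widely between the 3 sham samples, with sums of 2395, 30109 and 36420 CPM.

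In GENCODE M21 on GRCm38, Scd3 (ENSMUSG00000025202) lies at chr19:44203269-44244016 on the plus strand and Scd1 (ENSMUSG00000037071) at chr19:44394455-44407879 on the minus strand, 150438 bases apart. Elovl3 lies on the same chromosome at chr19:46131897-46135694. Awat2, Dgat2l6 and Awat1 form a cluster on the X chromosome, at chrX:100402221-100442717, chrX:100524838-100546144 and chrX:100572251-100578205, with gaps of 82120 and 26106 bases between neighbours. Far2 is at chr6:148047259-148182758, Soat1 at chr1:156424525-156474331 and Fa2h at chr8:111345135-111393824. All 10 are protein coding, and the counts are given per gene. Among stretches of 31 bases in the transcripts, Scd3 shared 15.2% with other genes (8.12% with Scd1), Far2 11.9% (10.8% with Ergic2), Scd1 8.18% (5.84% with Scd3) and each other member at most 1.55%. Counts of Scd1, Scd3 and Far2 therefore depend a little more than the rest on how reads were split between similar transcripts.

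RefSeq start-site windows (GRCm38.p6) were found for 6 of the 10 genes. Shown are the bases before the start, and outside the GENCODE gene, of Scd3, the member with the largest fall between radiated and control skin, of Awat1, for one end of the X chromosome cluster, and of Soat1, for the cholesterol ester branch. Each reads 5′ to 3′ on the gene's strand, and capitals mark a motif match. The Scd3 stretch is chr19:44203038-44203268 (plus strand), the Awat1 stretch is chrX:100571997-100572246 (plus strand) and the Soat1 stretch is chr1:156474332-156474578 (minus strand).
Scd3: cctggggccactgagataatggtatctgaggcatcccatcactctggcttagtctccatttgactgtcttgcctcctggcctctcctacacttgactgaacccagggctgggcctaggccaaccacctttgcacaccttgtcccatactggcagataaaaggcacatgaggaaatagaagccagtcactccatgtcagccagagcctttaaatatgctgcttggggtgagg
Awat1: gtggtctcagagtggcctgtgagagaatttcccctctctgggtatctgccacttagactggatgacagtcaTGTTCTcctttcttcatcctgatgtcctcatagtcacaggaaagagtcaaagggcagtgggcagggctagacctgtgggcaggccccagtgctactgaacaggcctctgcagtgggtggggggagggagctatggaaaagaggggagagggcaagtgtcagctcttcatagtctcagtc
Soat1: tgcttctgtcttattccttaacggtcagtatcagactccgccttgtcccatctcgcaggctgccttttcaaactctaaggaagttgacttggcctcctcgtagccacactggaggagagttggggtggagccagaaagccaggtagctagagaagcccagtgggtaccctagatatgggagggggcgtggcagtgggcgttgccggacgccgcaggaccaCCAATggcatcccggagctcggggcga
A total of 5 short motifs were searched on both strands in the 250 bases before each start, over 7 windows of the 6 genes. The motif TATAAA was in 0 of the 7 windows, against 12.4% of all 32851 windows of that length. The E-box CACGTG was in 0 of them, against 6.02% of all. The nuclear receptor motif AGGTCA was in 0, against 14%. The motif CCAAT was in 3 (1 of Soat1, 30 bases before its start, and 2 of Awat2), against 33.8%. Of the 2 Awat2 windows, that at chrX:100412588-100412837 lies inside the GENCODE Awat2 gene. AGAACA, a core motif of steroid hormone receptor sites, was in 1, that of Awat1, on the opposite strand and 179 bases before the start, against 16.1%. A match is a description of the letters only.

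In sham skin, levels per kilobase of exon spanned a wide range. The length used covers all annotated exons of a gene, whichever transcripts were present, so the order between genes is approximate. Scd1 stood highest at 393 ± 151 CPM per kilobase (SD, n = 3), followed by Scd3 at 63.2 ± 32.3, Fa2h at 40.8 ± 15.2, Soat1 at 32.1 ± 9.035, Far2 at 17.7 ± 5.25 (SD, n = 3 each). Awat1 followed at 8.91 ± 2.01, then Elovl3 at 5.68 ± 1.14, Awat2 at 5.12 ± 1.37, Mc5r at 4.79 ± 1.06 and Dgat2l6 at 1.31 ± 0.547 CPM per kilobase (SD, n = 3 each). Scd3, Fa2h and Soat1 did not differ from their neighbour in this order by more than an SD, and neither did Elovl3, Awat2 and Mc5r. All levels below are CPM, which are compared within a gene only.

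**Figure D1:**
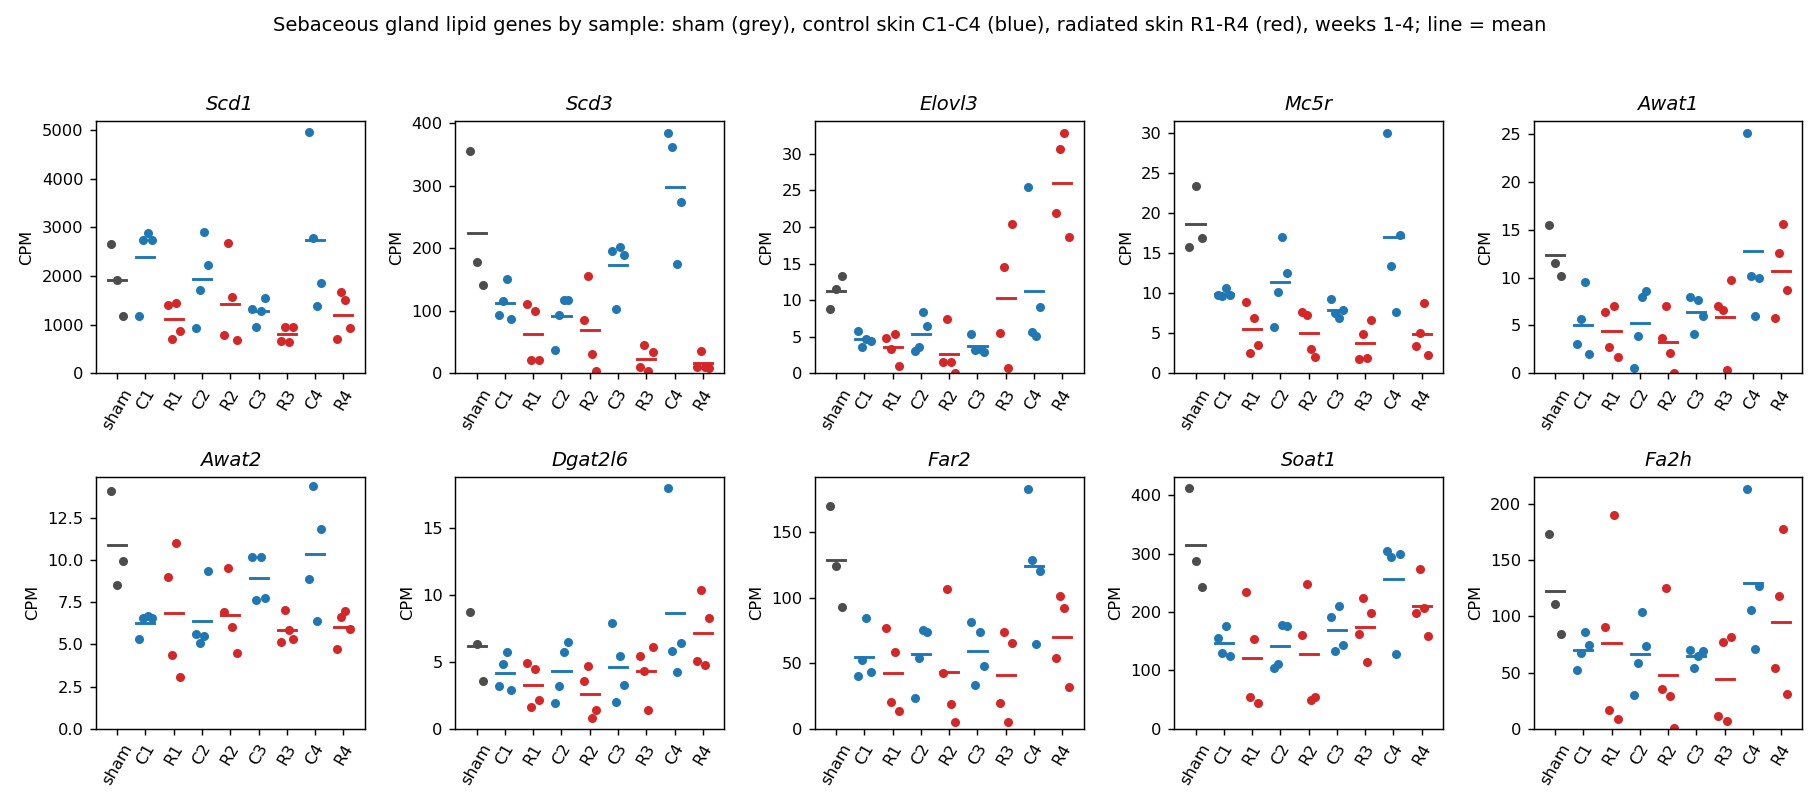
Level of each of the 10 genes in every sample, in CPM on a linear axis starting at 0, with sham skin in grey, control skin of weeks 1 to 4 (C1 to C4) in blue and radiated skin (R1 to R4) in red, and a line at each group mean. Scd3 in radiated skin of week 4 lies between 7.85 and 35.5 CPM, under all control samples of that week, while Elovl3 in those same radiated samples lies between 18.7 and 32.8 CPM.

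The first question was how the glandular genes differed between both kinds of skin from mice of 1 week. At week 3, Scd3 and Scd1 were lower in radiated skin, and at week 4 Scd3, Scd1, Mc5r and Awat2 were lower. No member was called higher in any week. Genes were called at an adjusted p under 0.05 in edgeR's quasi-likelihood test with Benjamini-Hochberg adjustment over all genes tested. At week 1, 0 of the 10 were called, as were 0% of all genes, and at week 2, 0 of the 10, with 0.00577% of all genes called. At an unadjusted p under 0.05, 2 members (Scd1 and Mc5r) stood at week 1 and 1 (Mc5r) at week 2. The share of all genes at that threshold was not counted. DESeq2 called 1 member (Scd1) at week 1 and 0 at week 2, with 2.41% and 4.23% of all genes called by it. At week 3, 2 of the 10 were called, with 27.2% of all genes called and 13.6% called lower. At week 4, 4 of the 10 were called, with 48.4% of all genes called and 24.2% called lower. With the mouse as a block, 3.7%, 21.1% and 42.7% of all genes were called at weeks 2, 3 and 4, and 0, 1 and 3 members. Without control replicate 3, 6 members were called at week 4, with Far2 and Soat1 added (43.3% of all genes were called), and 2 (Scd3 and Mc5r) were called without radiated replicate 1 or 4 or control replicate 2 (43.9%, 41.8% and 42.8% of all genes). The median log2 fold change over the 10 genes was -0.33, -0.47, -0.51 and -0.60 at weeks 1 to 4, against 0.05, -0.0025, 0.08 and 0.02 over all genes tested, and with 1 library left out it ran from -0.69 to -0.06, -1.29 to -0.16, -0.70 to -0.15 and -0.87 to -0.36. In bulk tissue, fewer sebocytes and less RNA per sebocyte cannot be told apart.

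**Figure D2:**
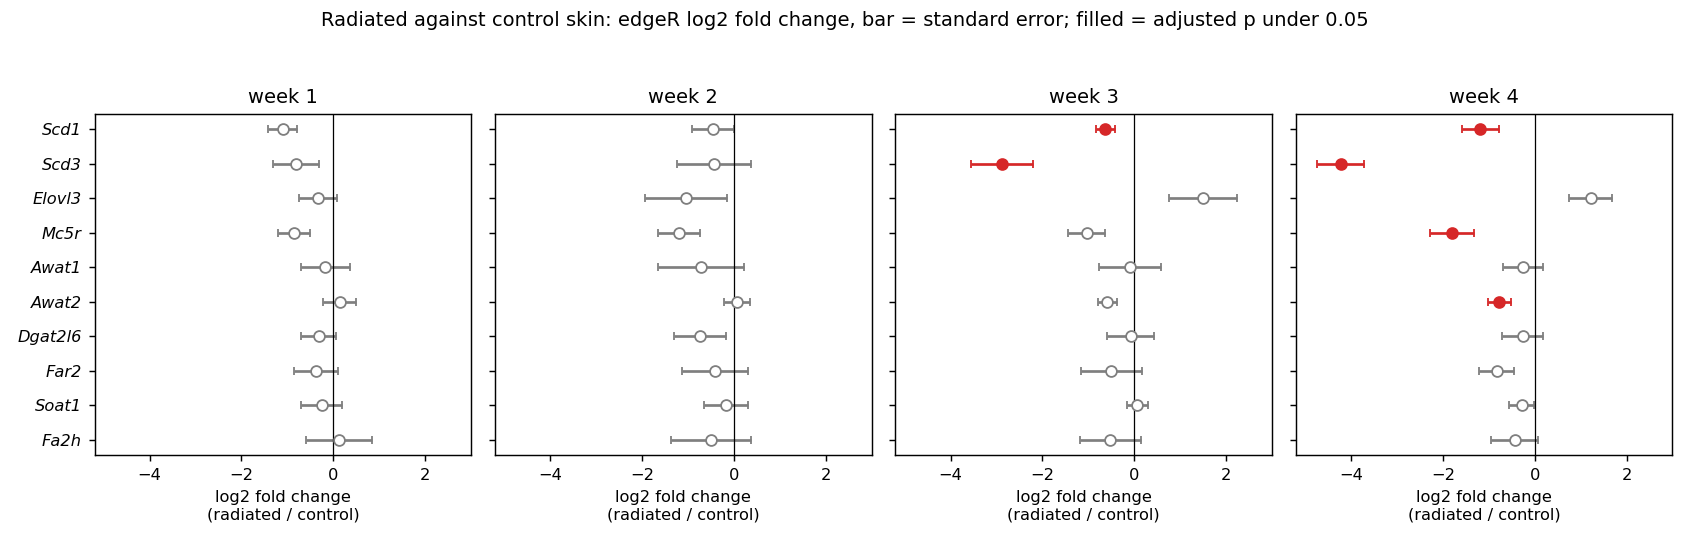
Log2 fold change of each gene between radiated and control skin at weeks 1 to 4, from edgeR, with bars of 1 standard error, and filled points where the adjusted p was under 0.05. Scd3 moves from -0.81 at week 1 to -4.23 at week 4, and Elovl3 is the one gene of the 10 with a positive value above 1 at weeks 3 and 4.

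The desaturases put the double bond into newly made fatty acids. Scd3 is the isoform known for its near restriction to sebaceous glands, and Scd1 is the main isoform of skin, whose loss in mice leaves rudimentary glands. At week 4, Scd3 stood at 384, 362, 174 and 274 CPM in control replicates 1 to 4 and at 9.52, 35.5, 10.5 and 7.85 CPM in radiated replicates 1 to 4. The groups did not overlap, and the lowest control sample was several times above the highest radiated one. Scd3 was 18.7-fold lower (log2 fold change -4.23, SE 0.52, edgeR adjusted p = 0.000131), lower in 4 of 4 pairs. At week 3, Scd3 stood at 196, 102, 202 and 189 CPM in control and at 10.5, 44.5, 3.09 and 34.2 CPM in radiated skin. Again no sample of one kind reached the other, and the gene was 7.36-fold lower (log2 fold change -2.88, SE 0.68, edgeR adjusted p = 0.0137). Both calls held under every alternative run, including each single library left out, with log2 fold changes from -3.42 to -2.51 at week 3 and from -4.99 to -4.003 at week 4.

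At weeks 1 and 2 the Scd3 groups overlapped. Radiated replicates of week 1 stood at 111, 21.5, 99.3 and 21.5 CPM, against 86.0 to 150.5 CPM in control skin (adjusted p = 0.468, edgeR). Radiated replicates of week 2 stood at 84.8, 156, 30.7 and 3.00 CPM, against 37.8 to 117 CPM in control skin (adjusted p = 0.858, edgeR). At week 1, 2 radiated samples were within the control range and 2 under it. At week 2, replicate 2 was above all control samples, replicate 1 within their range and replicates 3 and 4 under it. The radiated-minus-control difference of Scd3 changed over the 4 weeks in a joint edgeR fit of the 32 radiated and control libraries (adjusted p = 0.0313 for the week by radiation interaction, with 15.6% of all genes called), and it was the only 1 of the 10 genes called there. With the mouse as a block the Scd3 interaction had an adjusted p of 0.139 (15.8% of all genes were called), and it was not called without the libraries numbered 1 or without those numbered 3. No step from one week to the next was called for any member by edgeR or DESeq2, with 0%, 6.9% and 0.419% of all genes called by edgeR for the 3 steps and 0.0465%, 10.5% and 2.2% by DESeq2. At an unadjusted p under 0.05, 0, 2 and 0 members stood in these steps, and the share of all genes at that threshold was not counted.

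Scd1 differed less. At week 4 it stood at 4968, 2791, 1382 and 1859 CPM in control and at 698, 1673, 1506 and 941 CPM in radiated skin, so the groups overlapped. It was 2.27-fold lower (log2 fold change -1.19, SE 0.40, edgeR adjusted p = 0.0346), lower in 3 of 4 pairs. This call was lost with the mouse as a block (adjusted p = 0.0981) and without radiated replicate 1 or 4 or control replicate 1 or 2 (adjusted p from 0.0715 to 0.0981). Without control replicate 1, the highest Scd1 sample of all 35, the log2 fold change was -0.71. At week 3, radiated samples held 674, 961, 652 and 956 CPM and control samples 1312, 962, 1278 and 1548 CPM. The highest radiated sample (960.7) and the lowest control sample (961.9) nearly met, and Scd1 was 1.54-fold lower (log2 fold change -0.63, SE 0.20, edgeR adjusted p = 0.0448). That call was lost with the block (adjusted p = 0.0839), with total-count scaling (-0.38, adjusted p = 0.227), in 1 fit of all samples (adjusted p = 0.231) and without radiated replicate 1 or 3 or control replicate 1, 3 or 4 (adjusted p from 0.0801 to 0.119). At week 1, Scd1 held 1402, 705, 1455 and 869.9 CPM in radiated and 1187, 2743, 2891 and 2737 CPM in control skin. Its log2 fold change of -1.10 (SE 0.32) was not called by edgeR (adjusted p = 0.227).

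Scd2, a desaturase isoform of many tissues and not one of the 10 genes, moved the other way at week 4. It rose from 220.4 to 409 CPM on average (log2 fold change 0.90, SE 0.24, edgeR adjusted p = 0.0109), in 4 of 4 pairs and with no overlap. Relative to Scd1, Scd3 was 9.215 to 13.37% in sham skin. In control skin it was 3.14 to 7.90%, 4.03 to 5.43%, 10.6 to 15.8% and 7.72 to 14.7% at weeks 1 to 4, so weeks 1 and 2 lay wholly under sham. In radiated skin it was 2.47 to 7.94%, 0.440 to 10.75%, 0.473 to 4.63% and 0.698 to 2.12%, under all control samples of the same week at weeks 3 and 4 only. The ratio was formed after the values were seen and is a description.

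Elovl3 elongates saturated and monounsaturated fatty acids to very long chains and is known from sebaceous glands, hair follicles and brown fat. At week 4, it held 21.9, 30.7, 32.8 and 18.7 CPM in radiated and 25.5, 5.62, 5.13 and 9.03 CPM in control skin. Control replicate 1 lay inside the radiated range and the other control samples under it. The log2 fold change of 1.22 (SE 0.48) was not called (edgeR adjusted p = 0.0582, and 0.0501 with the mouse as a block), while without control replicate 1 it was 2.01 and was called (adjusted p = 0.000334). At week 3, radiated samples held 5.44, 14.6, 0.762 and 20.4 CPM, and control samples 5.40, 3.15, 3.25 and 2.91 CPM. Radiated samples 2 and 4 lay well above all control samples and sample 3 under them (adjusted p = 0.154, edgeR), and Elovl3 was called higher when radiated replicate 3 was left out (adjusted p = 0.0149). At weeks 1 and 2, Elovl3 held at most 5.31 and 7.48 CPM in radiated skin (adjusted p = 0.717 and 0.647, edgeR).

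Fa2h, which hydroxylates fatty acids of sphingolipids and sebum, was not called in any week. Its radiated samples spread widely, from 8.56 to 189.8 CPM at week 1, 1.14 to 125 CPM at week 2, 7.20 to 81.7 CPM at week 3 and 30.9 to 178 CPM at week 4. Control samples held 52.7 to 85.7, 30.1 to 103.5, 53.9 to 69.7 and 70.9 to 213 CPM. The radiated range thus enclosed the whole control range at weeks 1, 2 and 3 (adjusted p = 0.944, 0.846 and 0.59, edgeR) and overlapped it at week 4 (adjusted p = 0.506).

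Wax ester synthesis is served by Far2, the reductase that makes fatty alcohols, and by the acyltransferases Awat1 and Awat2, with Dgat2l6 a further acyltransferase of the same family. Awat2 was the one called. At week 4 it held 8.89, 14.4, 6.41 and 11.8 CPM in control and 4.74, 6.63, 7.00 and 5.89 CPM in radiated skin. The groups overlapped through control replicate 3, and Awat2 was 1.70-fold lower (log2 fold change -0.77, SE 0.25, edgeR adjusted p = 0.0269), lower in 3 of 4 pairs. The call was lost without radiated replicate 1 or 4 or control replicate 2 or 4 (adjusted p from 0.0601 to 0.0918), and without control replicate 2 the log2 fold change was -0.55. At week 3, all radiated samples of Awat2 (5.17 to 7.04 CPM) were under all control samples (7.62 to 10.2 CPM), with a log2 fold change of -0.59 (SE 0.20) that was not called by edgeR (adjusted p = 0.0551) and was called by DESeq2 (adjusted p = 0.0168).

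Awat1, of the same X chromosome cluster, was not called in any week, and neither were Dgat2l6 and Far2. At week 4, Awat1 held 5.76 to 15.6 CPM in radiated and 5.98 to 25.1 CPM in control skin (adjusted p = 0.657, edgeR). Dgat2l6 held 4.78 to 10.4 CPM in radiated and 4.27 to 17.9 CPM in control skin (adjusted p = 0.66, edgeR). Far2 held 54.2, 102, 92.4 and 31.9 CPM in radiated and 183, 129, 65.01 and 120.1 CPM in control skin (adjusted p = 0.102, edgeR). In each of these genes the 2 kinds of skin overlapped at week 4. Without control replicate 3, Far2 was called lower (log2 fold change -1.04, edgeR adjusted p = 0.0442), and DESeq2 called it on all 8 samples (adjusted p = 0.0482). Far1, the broadly expressed relative of Far2, rose at week 4 (log2 fold change 0.43, SE 0.12, edgeR adjusted p = 0.016, and 0.0512 in 1 fit of all 35 samples).

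Soat1, which esterifies cholesterol, was not called in any week by edgeR with all samples in. Its radiated means were 122 ± 89.8, 128 ± 94.8, 175 ± 47.3 and 209.6 ± 47.7 CPM at weeks 1 to 4 (SD, n = 4 each). Its control means were 147 ± 24.0, 142 ± 40.2, 169.8 ± 36.7 and 256 ± 85.7 CPM (SD, n = 4 each). No difference exceeded the larger SD of the week, and the adjusted p was 0.803, 0.909, 0.84 and 0.406 (edgeR). Without control replicate 3, which held 128 CPM against 293 to 304 CPM in the others, Soat1 was called lower at week 4 (log2 fold change -0.51, edgeR adjusted p = 0.0319).

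Mc5r, the melanocortin receptor of the gland (chr18:68337596-68342446, GRCm38), fell at week 4. Control replicates 1 to 4 held 30.1, 13.4, 7.65 and 17.3 CPM and radiated replicates 3.46, 5.08, 8.76 and 2.23 CPM. Radiated replicate 3 was above control replicate 3, and the other radiated samples were under all control samples. Mc5r was 3.47-fold lower (log2 fold change -1.80, SE 0.48, edgeR adjusted p = 0.0115), lower in 3 of 4 pairs, and was called under every alternative run (adjusted p from 0.00022 to 0.0438). At week 3, radiated samples (1.83 to 6.63 CPM) all lay under control samples (6.93 to 9.23 CPM), with a log2 fold change of -1.04 (SE 0.41) that was not called by edgeR (adjusted p = 0.0856) and was called by DESeq2 (adjusted p = 0.0392) and without radiated replicate 4 (-1.44, adjusted p = 0.0204). At week 1, they held 8.88, 2.54, 6.87 and 3.58 CPM against 9.60 to 10.6 CPM in control skin, again with no overlap (log2 fold change -0.85, SE 0.34, edgeR adjusted p = 0.308). At week 2 the log2 fold change was -1.20 (SE 0.46, edgeR adjusted p = 0.29), with overlapping groups.

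Over the 4 weeks, the number of members whose radiated samples all lay under the control samples was 1 (Mc5r), 0, 4 (Scd1, Scd3, Mc5r and Awat2) and 1 (Scd3). Over all genes tested, the groups did not overlap in 8.39%, 6.92%, 31.7% and 46% at weeks 1 to 4, and lay apart with the radiated samples lower in 4.89%, 2.95%, 17.3% and 23.2%.

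The next question was whether control skin of the radiated mice held the same levels as sham skin. Control skin was lower for several members at weeks 1 and 3, and none were called at weeks 2 and 4. At week 1, 4 of the 10 were called lower (Elovl3, Mc5r, Far2 and Soat1), with 4.92% of all genes called and 1.65% called lower. At week 2, 0 were called, with 2.44% of all genes called. There 6 stood at an unadjusted p under 0.05, a threshold at which the share of all genes was not counted. DESeq2 called 4 at week 2 (and 11% of all genes), and 2 (Far2 and Soat1) were called without control replicate 1 (with 12.5% of all genes). At week 3, 5 were called lower (Elovl3, Mc5r, Far2, Soat1 and Fa2h), with 11.4% of all genes called and 6.19% called lower. At week 4, 0 were called by edgeR or DESeq2 and 0 stood at an unadjusted p under 0.05, with 3.65% of all genes called by edgeR and 10.3% by DESeq2. The median log2 fold change of the 10 genes was -0.97, -0.99, -0.92 and 0.01 at weeks 1 to 4, against -0.04, -0.05, -0.04 and -0.03 over all genes tested. All control samples of a week lay under all sham samples for 6, 5, 6 and 0 members at weeks 1 to 4, as they did for 10.9%, 8.7%, 13.5% and 9.64% of all genes tested. In either direction, the groups did not overlap for 23.4%, 18.6%, 26.3% and 20.8% of all genes. The 4 comparisons share the same 3 sham samples.

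Elovl3 held 8.83, 11.6 and 13.3 CPM in sham skin. Control skin held 5.82, 3.56, 4.72 and 4.42 CPM at week 1 and 5.40, 3.15, 3.25 and 2.91 CPM at week 3, all under the lowest sham sample. The fall was 2.44-fold at week 1 (log2 fold change -1.29, SE 0.23, edgeR adjusted p = 0.0333) and 3.08-fold at week 3 (-1.62, SE 0.27, adjusted p = 0.0124). Soat1 held 413, 288 and 242 CPM in sham skin. Control skin held 155, 129, 177 and 125 CPM at week 1, and it was 2.16-fold lower (log2 fold change -1.11, SE 0.20, edgeR adjusted p = 0.0331). At week 3 it held 192, 134, 209.5 and 144 CPM, 1.87-fold lower than sham (log2 fold change -0.90, SE 0.22, edgeR adjusted p = 0.0353). In both weeks each control sample was under each sham sample.

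Mc5r held 15.8, 23.4 and 16.9 CPM in sham skin, above all control samples of weeks 1 (9.60 to 10.6 CPM) and 3 (6.93 to 9.23 CPM). Its log2 fold changes were -0.92 (SE 0.17, edgeR adjusted p = 0.0364) and -1.25 (SE 0.20, adjusted p = 0.0103). Far2 held 169.6, 124 and 93.3 CPM in sham skin, against 40.4 to 84.3 CPM at week 1 (log2 fold change -1.24, SE 0.28, edgeR adjusted p = 0.0457) and 33.3 to 81.7 CPM at week 3 (-1.14, SE 0.31, adjusted p = 0.0472). Fa2h held 173, 110.6 and 84.3 CPM in sham skin and 53.9 to 69.7 CPM in control skin of week 3 (log2 fold change -0.94, SE 0.22, edgeR adjusted p = 0.032). None of these groups overlapped. Of the other members, Scd1 was near its sham level at weeks 1 and 2 (adjusted p = 0.605 and 0.998, edgeR).

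With 1 library left out, many of these calls were lost while the fold changes kept their direction. At week 1, 0 members were called without sham replicate 2 or 3 or without control replicate 2, 3 or 4, where 0%, 0%, 0.118%, 0.136% and 0.062% of all genes were called. Without sham replicate 1 or control replicate 1, 3 members were called, with 9.84% and 8.81% of all genes. The log2 fold change of Elovl3 at week 1 ran from -1.43 to -1.14 over these 7 fits, and that of Soat1 from -1.26 to -0.86. At week 3, 3 and 4 were called without sham replicates 1 and 3, and 2 (Elovl3 and Mc5r) were called without sham replicate 2 or without any 1 of the 4 control samples. Over these 7 fits of week 3, 3.46 to 13.3% of all genes were called, and the log2 fold change of Elovl3 ran from -1.86 to -1.48. In 1 fit of all 35 samples, 0 members were called at weeks 1 and 3, with 5.65% and 11.5% of all genes called, and Elovl3 had log2 fold changes of -1.28 and -1.61. The hair follicle markers moved with this comparison: all 17 had negative fold changes in each of the 4 weeks, with 1, 3, 10 and 15 called lower, and sums of 51.7 to 7556 CPM in the 16 control samples. Skeletal muscle markers were called higher for 6, 5, 3 and 0 of 9. Their sums were 15861 to 49097 CPM in sham and 57730 to 121532 CPM in control skin of weeks 1 and 2. At weeks 3 and 4 they were 51005 to 94245 and 4190 to 48039 CPM. Adipocyte markers were called higher for 5, 1, 0 and 1 of 9 tested. Their sums were 278 to 567 CPM in sham and 706 to 1371, 522 to 865, 294 to 521 and 317 to 1028 CPM in control skin of weeks 1 to 4. Macrophage markers were called higher for 0, 0, 1 and 0 of 9. All 9 had positive fold changes at weeks 1 and 3, and 4 of 9 had them at weeks 2 and 4. The median log2 fold change was 1.05, -0.01, 1.48 and -0.08 at weeks 1 to 4. Macrophage sums were 285 to 543 CPM in sham and 468 to 1158, 271 to 745, 531 to 1489 and 295 to 493 CPM in control skin of weeks 1 to 4. Schwann cell markers were called higher for 1, 0, 1 and 1 of 7. Their sums were 145 to 290 CPM in sham and 309 to 391, 210 to 406, 313 to 421 and 294 to 365 CPM in control skin. The part of these tissues and cells in the lower member levels was not tested.

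Radiated skin was then set against sham skin, using the same 3 sham samples. At week 1, 0 members were called (1.75% of all genes were). At an unadjusted p under 0.05 stood 7, a threshold at which the share of all genes was not counted. At week 1, 4 were called by DESeq2 (and 6.79% of all genes) and 1 (Mc5r) without radiated replicate 1 (with 1.99% of all genes). At week 2, 1 was called lower (Mc5r), with 5.06% of all genes called and 2.9% called lower. At week 3, 4 were called lower (Scd1, Scd3, Mc5r and Awat2), with 18.2% called and 7.75% called lower. At week 4, 3 were called lower (Scd3, Mc5r and Awat2) and 1 higher (Elovl3), with 26.7% called, 11.5% lower and 15.2% higher. All radiated samples lay under all sham samples for 6, 3, 8 and 3 members at weeks 1 to 4 and above them for 1 (Elovl3) at week 4, against 7.89%, 11.5%, 18.1% and 19.3% of all genes tested that lay under sham and 18.5% that lay above it at week 4. In either direction, the groups did not overlap for 14.9%, 20.9%, 33.7% and 37.8% of all genes. Hair follicle markers were called lower than in sham skin for 17, 17, 11 and 5 of 17 and macrophage markers higher for 0, 0, 9 and 9 of 9 at weeks 1 to 4. Skeletal muscle markers were called lower for 0, 0, 0 and 8 of 9, with sums of 6825 to 14311 CPM in radiated skin of week 4 and 15861 to 49097 CPM in sham. Of 8 interfollicular epidermis markers, 0, 0, 0 and 1 were called higher and 0, 0, 1 and 2 lower. Schwann cell markers were called lower for 0, 0, 1 and 1 of 7. Of 9 adipocyte markers tested, 1 was called higher at week 2 and 1 lower at week 4. The part of these tissues in the member levels was not tested.

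Elovl3 was the one member called above sham. Its 4 radiated samples of week 4 (18.7 to 32.8 CPM) all exceeded the highest sham sample (13.3 CPM), and it was 2.40-fold higher (log2 fold change 1.26, SE 0.24, edgeR adjusted p = 0.00639). The call held without each single library and was lost in 1 fit of all 35 samples (log2 fold change 1.21, adjusted p = 0.27). Scd3 fell 13.8-fold from sham to radiated week 4 (log2 fold change -3.78, SE 0.58, edgeR adjusted p = 0.00234), from 355, 177 and 141 CPM. It fell 9.47-fold to radiated week 3 (-3.24, SE 0.79, adjusted p = 0.025), a call lost without sham replicate 1 or 2 or radiated replicate 1 (adjusted p from 0.054 to 0.0757).

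Mc5r was the member called lower in the most weeks against sham, with log2 fold changes of -1.90 (SE 0.45, edgeR adjusted p = 0.0453), -2.26 (SE 0.47, adjusted p = 0.0165) and -1.89 (SE 0.41, adjusted p = 0.0109) at weeks 2, 3 and 4. The week 2 call was lost without any of the 3 sham samples or radiated replicate 2, 3 or 4 (adjusted p from 0.0554 to 0.144), the week 3 call without sham replicate 2 (adjusted p = 0.0615). Awat2 fell by 0.85 (SE 0.25, edgeR adjusted p = 0.0483) and 0.80 (SE 0.23, adjusted p = 0.0336) on the log2 scale at weeks 3 and 4. Its week 3 call was lost without any 1 of the 7 libraries (adjusted p from 0.0685 to 0.214), with total-count scaling (0.0686) and with no filter (0.0659). It was also lost with the replicate number as a block (edgeR adjusted p = 0.178). In that fit Far2 was called lower instead (log2 fold change -2.67, adjusted p = 0.0447). The week 4 call of Awat2 was lost without sham replicate 1 (log2 fold change -0.56, adjusted p = 0.115) or radiated replicate 1, 2 or 4 (adjusted p from 0.0622 to 0.0865). With the block it was lost as well (edgeR adjusted p = 0.149). Scd1 fell by 1.20 (SE 0.31, edgeR adjusted p = 0.0306) on the log2 scale at week 3, a call lost without sham replicate 1 or 2 or radiated replicate 1, 2 or 3 (adjusted p from 0.0599 to 0.104).

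**Figure D3:**
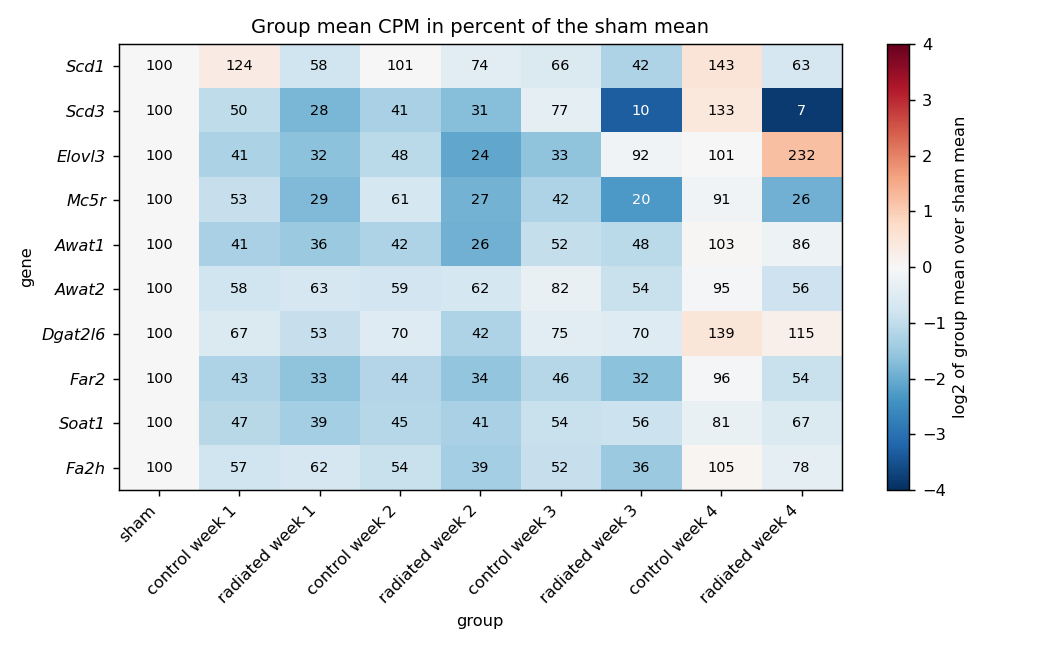
Group means of the 10 genes in percent of the sham mean, with colour showing the log2 of that ratio. Scd3 runs down to 10.3% and 7.05% in radiated skin of weeks 3 and 4, Mc5r stays at 20.3 to 29.3% in radiated skin of all weeks, and Elovl3 runs from 23.7% at week 2 to 232% at week 4.

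Set in percent of the sham mean, the members did not share 1 course. In radiated skin, 10, 10, 10 and 8 of the 10 means were below sham at weeks 1 to 4, and 6, 8, 6 and 2 were below 50% of it. In control skin, 9, 9, 10 and 4 were below sham and 5, 5, 3 and 0 below 50%. Scd3 was the lowest member in radiated skin at weeks 1, 3 and 4, with 28.2%, 10.3% and 7.05% of sham, and Elovl3 at week 2 with 23.7%. Elovl3 was the highest member at weeks 3 and 4, with 91.6% and 232%. The order of the 9 groups differed accordingly. Scd3 ranked control week 4 first (298 ± 95.5 CPM, SD, n = 4) and radiated week 4 last (15.8 ± 13.1 CPM, SD, n = 4), while Elovl3 ranked radiated week 4 first (26.0 ± 6.79 CPM, SD, n = 4) and radiated week 2 last (2.66 ± 3.30 CPM, SD, n = 4). For Elovl3, radiated week 4 stood above the next group by 1.53 times the larger SD, and all other neighbours in its order were closer than 1 SD. For Scd3 the one gap over 1 SD lay between control week 3 and control week 1 (1.29). Mc5r, Awat2, Far2 and Soat1 ranked sham first, and Scd1, Awat1, Dgat2l6 and Fa2h ranked control week 4 first, in each case by less than 1 SD from the next group.

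Within a group, samples that were low for one gene were often low for the others. In radiated week 2 replicate 4, Scd3 held 3.00 CPM, Far2 5.18, Fa2h 1.14, Awat1 0.0545 and Elovl3 0, while replicate 2 held 156, 107, 125, 7.02 and 7.48 CPM for the same genes. In radiated week 3 replicate 3, the values were 3.09, 5.03, 7.20, 0.343 and 0.762 CPM. Over the 35 samples, all 45 pairs of members had a positive Pearson r of log2 CPM, from 0.29 to 0.93 with a median of 0.70. The samples share their groups, so r was also taken on deviations from the group means, where it ran from 0.43 to 0.95 with a median of 0.71. Far2 and Fa2h were the closest pair over the samples as measured (0.93), and Scd3 and Elovl3 the most distant (0.29). On deviations from group means Scd3 and Elovl3 had an r of 0.85, so these 2 genes varied together within groups and their group means moved apart.

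**Figure D4:**
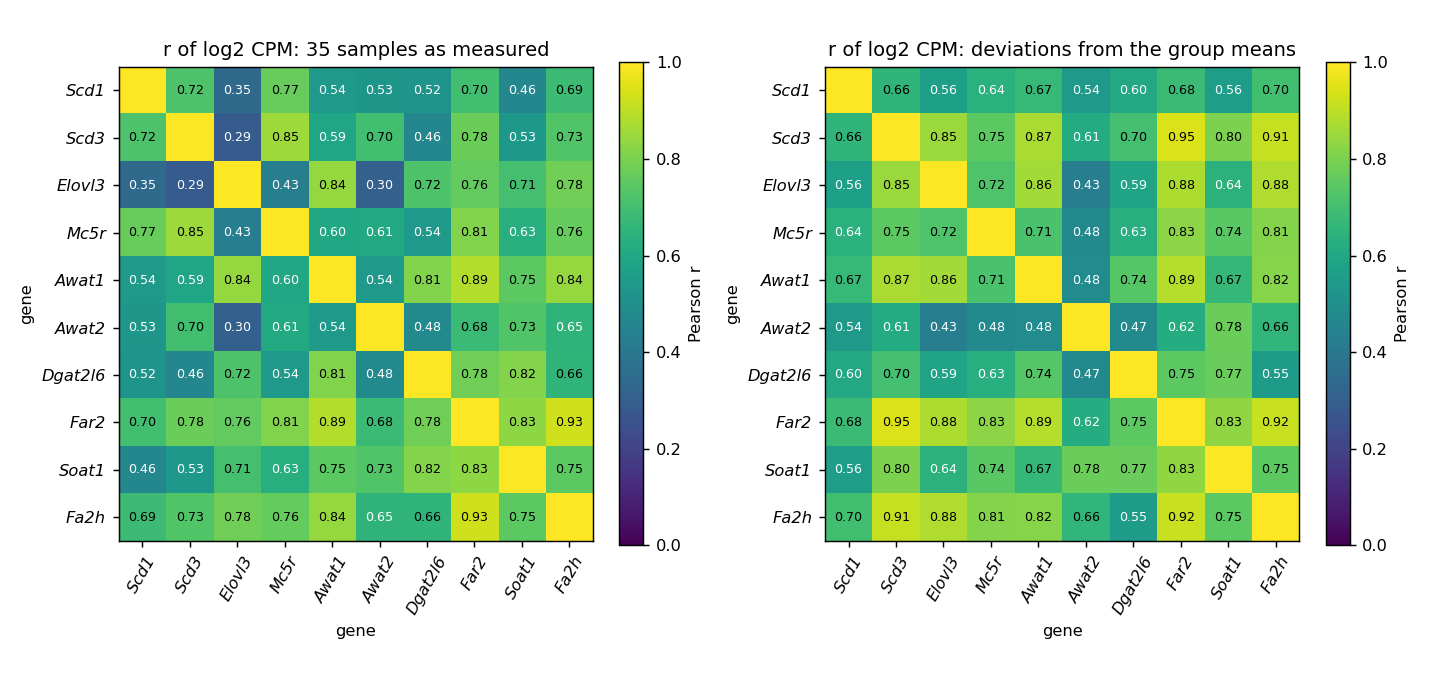
Pearson r of log2 CPM between each pair of the 10 genes, over the 35 samples as measured on the left and after subtracting each group's mean on the right. The Scd3 and Elovl3 cell goes from 0.29 to 0.85 between the panels, and Awat2 has the lowest values on the right.

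Ratios between members show that split sample by sample. Far2 was 47.75 to 70.14% of Scd3 in sham skin and 25.2 to 64.5% in control skin of all weeks. In radiated skin it was 59.4 to 93.5% at week 1, 49.9 to 172.7% at week 2, 163 to 192.3% at week 3 and 286.5 to 878.5% at week 4. All radiated samples of weeks 3 and 4 were thus above all control samples, and 1 radiated sample of week 2 (replicate 4) reached the range of week 3. Elovl3 was at most 15.6% of Scd3 in sham skin, in control skin and in radiated skin of weeks 1 and 2, and 24.7 to 59.6% and 86.4 to 312% in radiated skin of weeks 3 and 4. These ratios were formed after the values were seen and carry no test.

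**Figure D5:**
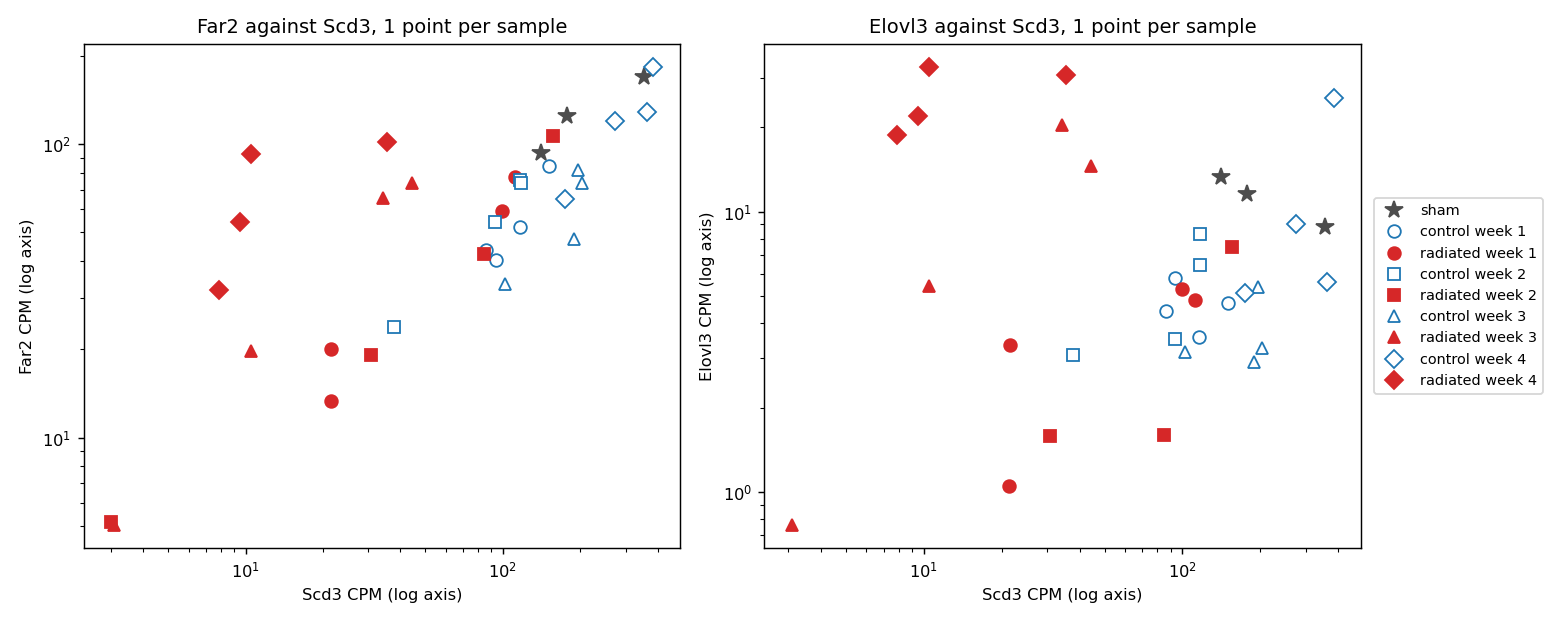
Far2 (left) and Elovl3 (right) against Scd3, in CPM on log axes, with 1 point per sample. The radiated week 2 sample in which Elovl3 was at 0 is left out of the right panel only. Radiated samples of weeks 3 and 4 (filled triangles and diamonds) hold more Far2 and more Elovl3 relative to Scd3 than all control samples, and in the left panel radiated week 2 replicate 4 lies beside a week 3 sample, with a Far2 level of 172.7% of Scd3.

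The genes most like the 10 in pattern were sought among 12523 other genes averaging 5 CPM or more, by Pearson r over the 35 samples with the mean of the members' standardised log2 CPM. The closest were Serpina3j (0.94), Cers4 (0.93), Cidea (0.93), Hsd3b6 (0.93), Secisbp2l (0.92), Clstn3 (0.92), Tmem164 (0.91), Rmdn3 (0.91), Reep6 (0.90) and Acoxl (0.90). On deviations from group means, 4 of these 10 were again among the closest 10 (Tmem164, Serpina3j, Cidea and Hsd3b6). Taken member by member, the closest gene was Hamp2 for Scd3 (0.97), Pex19 for Scd1 (0.86), Ces4a for Elovl3 (0.84) and Awat1 (0.93), Rmdn3 for Mc5r (0.91), Acox3 for Awat2 (0.87), Cers5 for Dgat2l6 (0.83), Hsd3b6 for Far2 (0.96), Tmem164 for Soat1 (0.93) and Clstn3 for Fa2h (0.96). Of the members, Far2 had the highest r with the mean of the other 9 (0.97) and Elovl3 the lowest (0.68).

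The wider lipid pathway showed a mixed picture in radiated against control skin, with no gene of its 4 lists called at weeks 1 and 2. Of 13 other sebocyte genes, 2 were higher and 2 lower at week 3, and 2 were higher and 6 lower at week 4 (1 and 5 lower with the mouse as a block). Acsbg1, an acyl-CoA synthetase, fell by 2.01 on the log2 scale at week 4 (SE 0.27, edgeR adjusted p = 0.000228). Fabp5, a fatty acid binding protein also of epidermis and macrophages, rose by 2.47 and 1.96 at weeks 3 and 4 (SE 0.47 and 0.26, edgeR adjusted p = 0.00567 and 0.000195), and Plin2, a lipid droplet coat protein of many cells, by 1.12 and 0.90 (SE 0.26 and 0.20, adjusted p = 0.0128 and 0.00485). The median log2 fold change of this list was -0.14 and -0.65.

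Of 15 genes of fatty acid and glycerolipid synthesis, 1 was higher and 5 lower at week 3, and 5 were higher and 8 lower at week 4, with medians of -0.24 and -0.58. Me1, which supplies NADPH for lipogenesis, fell by 1.48 and 1.76 on the log2 scale at weeks 3 and 4 (SE 0.19 and 0.26, edgeR adjusted p = 0.00164 and 0.000457). The elongase Elovl5 fell by 1.46 and 2.00 (SE 0.28 and 0.27, adjusted p = 0.00543 and 0.000238). Dgat1, which makes triglycerides, rose by 2.34 and 1.07 (SE 0.32 and 0.25, adjusted p = 0.00175 and 0.00645), and the desaturase Fads2 rose by 1.63 at week 4 (SE 0.19, adjusted p = 8.37e-05).

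Of 13 cholesterol synthesis genes, 1 was higher and 3 lower at week 3, and 1 was higher and 2 lower at week 4, with medians of -0.32 and 0.08. With the mouse as a block, 0 were higher in either week, and 4 and 2 were lower. Hmgcs1, an early enzyme of the pathway, fell by 0.76 on the log2 scale at week 4 (SE 0.16, edgeR adjusted p = 0.00272), and Dhcr7, a late enzyme, by 1.00 (SE 0.13, adjusted p = 0.000209). Of 9 epidermal barrier lipid genes, 0 were higher and 1 lower at week 3, and 1 was higher and 5 lower at week 4, with medians of -0.21 and -0.60. At week 4 Aloxe3, an epidermal lipoxygenase, fell by 1.11 (SE 0.16, edgeR adjusted p = 0.000354), and Ugcg, which makes glucosylceramide, rose by 1.04 (SE 0.09, adjusted p = 1.8e-05). Over all genes tested, 27.2% were called at week 3 and 48.4% at week 4.

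Markers of other cell types differed between radiated and control skin as well. At weeks 1 and 2, 0 of these markers were called without the block. With the mouse as a block, 9 of 9 macrophage markers were called higher at week 2 (sums of 705 to 2945 CPM in radiated and 271 to 745 CPM in control skin). In that fit 8 of 9 skeletal muscle markers were called lower at week 2 (32477 to 59646 against 69313 to 121532 CPM), as was 1 of 8 interfollicular epidermis markers. Without the block, macrophage markers were called higher for 4 of 9 at week 3 and 9 of 9 at week 4, with sums of 1660 to 2416 CPM in radiated and 295 to 493 CPM in control skin of week 4. Skeletal muscle markers were called lower for 8 and 6 of 9 (8 and 2 with the mouse as a block), with sums of 6825 to 14311 CPM in radiated and 4190 to 48039 CPM in control skin of week 4. Schwann cell markers were called lower for 5 and 6 of 7 (149.9 to 191 against 294 to 365 CPM at week 4), and adipocyte markers for 1 and 3 of 9 tested, or 2 and 4 with the block (393 to 502 against 317 to 1028 CPM at week 4). Of 8 interfollicular epidermis markers, 1 was called higher and 1 lower at week 3, and 1 higher and 5 lower at week 4. Hair follicle markers were called lower for 1 of 12 tested at week 3 (3 with the block) and higher for 8 of 13 tested at week 4 (4 higher and 1 lower with the block), where radiated replicates 1 to 4 summed to 292, 41.9, 6217 and 87.8 CPM and control samples to 109 to 139 CPM. Radiated replicate 3, with the highest hair follicle sum, also held the highest Elovl3 (32.8 CPM) and Fa2h (178 CPM) of its group, while replicate 2, with the lowest sum, held 30.7 and 118 CPM. Without radiated replicate 3 the same 4 members were called at week 4, with 47.3% of all genes called. The part of these cell types in the member levels was not tested.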

How the data were processed

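Messenger RNA was measured by sequencing total RNA of 35 skin biopsies in 9 groups. The authors deposited expected counts per gene (estimated counts, not all whole: 29.5 to 32.5% of a library's values are fractions), made per the submitters' processing notes with Trim Galore 0.6.7 and kallisto 0.46.2 on build mm10. kallisto shares reads between similar transcripts by estimation, so genes with near-identical stretches are less certain. How transcripts were summed to genes is not given in the sources used here.

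The counts were rounded to whole numbers. Each comparison of 2 groups was fitted on its own samples with edgeR 4.0.16 (R 4.3.3, limma 3.58.1): filterByExpr, TMM factors, quasi-likelihood F test, Benjamini-Hochberg adjustment over all genes tested, threshold 0.05. A standard error is the log2 fold change divided by the square root of F. A further fit of the 32 radiated and control libraries tested the interaction of week and radiation. CPM are on TMM-scaled libraries, and log2 CPM for correlations used a prior count of 2 over 19813 genes. The edgeR steps were tested on simulated data. A limit of 3 counts corresponds to 0.105 to 0.173 CPM and covers counting error only.

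The members and lists were chosen with earlier results of these data known. All 10 members are reported. Of each list, at most the 2 genes with the largest rise and the 2 with the largest fall among those called are named, besides list genes placed beside a member. Samples of the 2 kinds that share a week and a number were taken as 1 mouse from the labels' numbering; their deviations from the group means had a mean correlation of 0.07, 0.17, 0.05 and -0.02 at weeks 1 to 4. For radiated against control skin, blocked values stand beside a result where they change its call. Against sham skin, where the block pairs nothing, they stand beside single genes of radiated skin only. Calls of control skin lost with it are given as counts among the alternatives. Nothing in the labels says that the other samples of a group are more than separate samples, so p-values measure the spread between samples. No 2 libraries were identical, and each of the 51 within-group pairs differed by more than sampling noise (lowest reduced chi-square 19.96). Alternatives were RLE factors, total-count scaling, no filter, DESeq2 1.42.0, the replicate block, 1 fit of all 35 samples and leaving out each library. The 10 lists hold other sebocyte genes, fatty acid, cholesterol and barrier lipid genes, and markers of 6 other cell types. The values of 1 gene of the other sebocyte list are not reported here, though the list's counts include it.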

Additional observations from a re-analysis of the deposited data

Results flagged for a closer look

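Among the 80 groups of 4 samples (10 genes in 8 groups), 8, or 10%, held a sample far from the rest by Dixon's test, against about 5% by chance; 7 of the 8 were in control skin. In control skin of week 1, replicate 1 held the lowest Scd1 (1187 CPM, the others 2737 to 2891) and the lowest Awat2 (5.30 CPM, the others 6.56 to 6.68). In control skin of week 2, replicate 4 held the highest Awat2 (9.38 CPM, the next 5.60). In control skin of week 3, replicate 1 held the highest Elovl3 (5.40 CPM, the next 3.25) and replicate 2 the lowest Scd3 (102 CPM, the next 189). In control skin of week 4, replicate 1 held the highest Dgat2l6 (17.9 CPM, the next 6.38) and replicate 3 the lowest Soat1 (128 CPM, the next 293). In radiated skin of week 4, replicate 2 held the highest Scd3 (35.5 CPM, the next 10.5).

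The radiated-minus-control difference of Scd3 differed between the weeks (edgeR interaction, adjusted p = 0.0313), from a log2 fold change of -0.81 at week 1 and -0.43 at week 2 to -2.88 at week 3 and -4.23 at week 4. The call was lost with the mouse as a block (adjusted p = 0.139) and without the libraries numbered 1 or those numbered 3.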

How the results depend on the processing

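None of the 52 single-gene calls that were rerun changed direction under any alternative. The remaining list genes were rerun with the block only. Among values that were not called, the members' median for control week 4 against sham ran from -0.30 to 0.25 (0.01 as reported), and with the replicate block the week 1 change of radiated against control skin (log2) went from 0.13 to -0.73 for Fa2h and from 0.14 to -0.02 for Awat2. Of 16 counts of members called, DESeq2 gave 1 for radiated against control skin at week 1 and 4 at week 3 (edgeR 0 and 2), 8 and 4 for control against sham skin at weeks 1 and 2 (edgeR 4 and 0) and 4 for radiated week 1 against sham (edgeR 0). The share of all genes called went from 0 to 2.41%, 27.2 to 34.1%, 4.92 to 16.6%, 2.44 to 11% and 1.75 to 6.79% in these 5 comparisons. Total-count scaling gave 1 for radiated against control skin at week 3 and 1 for control week 2 against sham (30.2% and 2.91% of all genes). No filter gave 1 for control week 2 and 1 for radiated week 1 against sham (2.98% and 2.23% of all genes). One fit of all 35 samples gave 1 for radiated against control skin at week 3, 0 for control weeks 1 and 3, 1 for radiated week 1 and 2 for radiated week 2, each against sham (33.9%, 5.65%, 11.5%, 6.18% and 16.4% of all genes). The replicate block gave 1 for radiated against control skin at week 3 and 0 for the interaction (21.1% and 15.8% of all genes). Sham and other skin share only a number, and there the block gave 0 for control weeks 1 and 3 and 0 for radiated week 2 (0%, 2.66% and 2.76% of all genes), and it pairs nothing. The block changed none of the other counts of members called by more than 1.5 times. Against sham it also lowered counts of markers, among them at week 1 from 6 to 0 (skeletal muscle) and 5 to 0 (adipocyte) in control and from 17 to 6 (hair follicle) in radiated skin. The cause of these shifts was not tested.

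Leaving out 1 library at a time, the members called ranged from 1 to 3 and from 2 to 6 for radiated against control skin at weeks 3 and 4 (0 at weeks 1 and 2), from 0 to 3, 0 to 2 and 2 to 4 for control against sham skin at weeks 1, 2 and 3 (0 at week 4), and from 0 to 1, 0 to 1, 0 to 3 and 3 to 4 for radiated against sham skin at weeks 1 to 4. The shares of all genes called in the same fits ran from 0 to 1.3%, 0 to 1.16%, 17.9 to 28.3% and 41.8 to 47.3% for radiated against control skin at weeks 1 to 4, from 0 to 9.84%, 0 to 12.5%, 3.46 to 13.3% and 0 to 9.26% for control against sham skin and from 0.00557 to 2.88%, 0.583 to 7.94%, 6.07 to 22% and 19.1 to 24.5% for radiated against sham skin. Leaving out the libraries of 1 number at a time gave 0 to 1 for the interaction (4.97 to 9.2% of all genes) and 0 for the weekly steps. Of 52 single-gene calls, 24 held under every alternative, among the members Scd3 and Mc5r at week 4 against both control and sham skin and Scd3 at week 3 against control skin. Total-count scaling moved the median of all genes' log2 fold changes from 0.05 to 0.18 and from 0.08 to 0.32 for radiated against control skin at weeks 1 and 3, and from -0.04 to -0.19, -0.05 to -0.23 and -0.04 to -0.21 for control against sham skin at weeks 1 to 3. The 3 sham samples and the low CPM of Awat1, Awat2, Dgat2l6, Elovl3 and Mc5r limit precision.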
